A study of Mus musculus with 12 samples.

Results

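The transcripts described here come from 9 genes whose proteins act as brakes on the small GTPase RAS: the Sprouty genes Spry1, Spry2 and Spry4, the Spred genes Spred1 and Spred2, and the RAS GTPase-activating proteins (RasGAPs) Nf1, Rasa1, Rasa2 and Rasa3. They were taken by symbol, and all 9 were found among the 23234 genes of the expression table. They were studied in cultured primary mouse acute myeloid leukaemia (AML) cells from an FVB/n by C57/BL/6J F1 background. All groups, controls included, carried NRASG12V, an activated form of the RAS protein NRAS, and Mll-AF9, a leukaemia fusion gene, and all were grown with 10% serum and 1 ng/ml of the growth factor GM-CSF. The 4 groups, of 3 libraries each, were kept for 24 h in RPMI medium with DMSO as the vehicle, PD325901 at 20 µM, RAD001 at 26 µM or GDC0941 at 20 µM. Of these compounds, PD325901 inhibits the MEK kinases that activate ERK, RAD001 (everolimus) inhibits mTOR, and GDC0941 (pictilisib) inhibits class I PI3 kinases. The labels do not give the promoter behind NRASG12V, the number of mice, or whether the replicates were separate cultures, so p-values measure only the spread between these libraries.

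RAS is active while bound to GTP, and RasGAPs switch it off by speeding the hydrolysis of that GTP. RAS proteins with a changed glycine at the NRASG12V position respond poorly to RasGAPs, while the normal RAS proteins in the same cell remain sensitive. Spred proteins bind neurofibromin, the Nf1 product, and bring it to the membrane where RAS sits. Sprouty proteins act at other steps of growth factor signalling, through adaptors and RAF. Sprouty and Spred genes are known as feedback genes that ERK signalling itself induces, and loss of NF1 is a recurrent event in myeloid leukaemia.

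Expression was given as FPKM (fragments per kilobase of transcript, scaled to the mapped fragments of a library), which allows levels of different genes to be compared. Relative depth of the libraries ran from 0.846 to 1.21 times that of DMSO replicate 1, and absolute depth was unknown. Of 9 myeloid markers found, 8 had a group mean of at least 1 FPKM in all 4 groups, and Lyz2 was listed at 0 in every library. Levels of the 8 differed between groups. Means with DMSO, PD325901, RAD001 and GDC0941 were 23.1, 19.4, 2.25 and 3.94 FPKM for Mpo. In the same order Elane was at 34.6, 29.6, 1.16 and 2.66 FPKM. Itgam was at 336, 228, 811 and 537 FPKM and Cebpa at 41.0, 131, 41.5 and 59.9 FPKM. Ptprc, Csf1r, Csf2ra and Csf2rb had higher means with each inhibitor than with DMSO. Markers of other lineages were low except for 3 genes, chosen after their values were seen. Pf4, a platelet chemokine, made up most of the summed megakaryocyte markers, which ran from 77.1 to 133 FPKM with DMSO, 10.9 to 35.6 with PD325901, 215 to 278 with RAD001 and 3.72 to 4.76 with GDC0941. The megakaryocyte markers Itga2b, Gp9 and Gp1bb had group means of at most 0.412 FPKM. The B cell markers, mainly Cd79b, summed to 0.643 to 8.13 FPKM and the stromal and endothelial markers, mainly Pecam1, to 1.94 to 17.5 FPKM. Summed T cell and erythroid markers stayed at or below 6.32 and 3.32 FPKM. The part of these markers in the results was not tested.

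In DMSO the 9 genes covered a wide range of levels. Rasa3, a GAP that acts on RAS and on the related RAP proteins, was by far the most abundant, at 46.6 ± 7.77 FPKM (SD, n = 3, as for all means here). Spred1 followed at 20.9 ± 3.92 FPKM, Spred2 at 11.8 ± 1.53 FPKM, Rasa1 at 9.22 ± 0.629 FPKM and Rasa2 at 6.86 ± 0.588 FPKM. Spry2 (3.61 ± 1.17 FPKM) and Nf1 (2.08 ± 0.211 FPKM) came next, then Spry4 (1.02 ± 0.185 FPKM) and Spry1 (0.210 ± 0.0532 FPKM). In that order every neighbouring pair was separated in all DMSO libraries. Spry1 and Spry4 had means over all 12 libraries of 0.375 and 0.948 FPKM, below the minimum of 1 FPKM for testing. The other 7 genes were tested with limma on log2(FPKM + 1), together with all 10305 genes that met the minimum, and a gene was called at a Benjamini-Hochberg adjusted p under 0.05. Log2 changes are given ± SE on that scale, which understates the change of genes with low values.

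**Figure D1:**
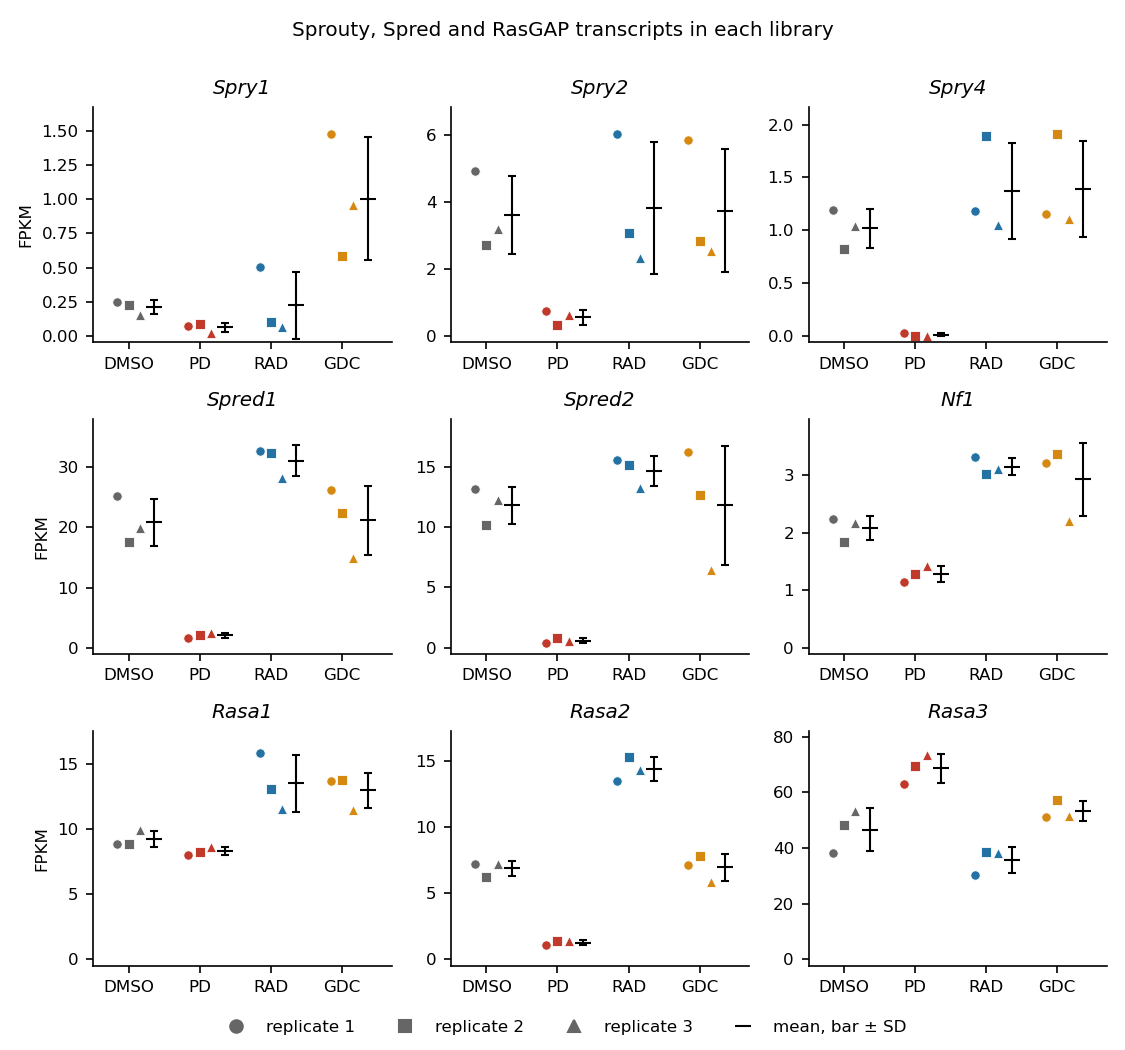
FPKM of each of the 9 genes (vertical axes, linear, 1 scale per gene) in the 12 libraries by group (horizontal axis; PD, PD325901; RAD, RAD001; GDC, GDC0941). Symbols mark the replicate number, and the bar to the right of each group is the mean ± SD of 3 libraries. With PD325901, Spred1, Spred2, Rasa2, Spry2, Spry4 and, by smaller margins, Nf1 and Rasa1 lay below all other groups, while Rasa3 lay above them.

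The comparison of PD325901 with DMSO asks how these brakes were expressed after 24 h with a MEK inhibitor. Kinase activity is not measured by these RNA libraries, here or for the other compounds. Spred1, Spred2, Spry2 and Rasa2 fell to a small part of their DMSO levels, Nf1 fell less, and Rasa3 rose. Spred2 stood at 13.1, 10.2 and 12.2 FPKM in the 3 DMSO libraries and at 0.366, 0.792 and 0.566 FPKM in the 3 PD325901 libraries. Every PD325901 library was thus under 1 FPKM and every DMSO library above 10 FPKM. The mean with PD325901 was 4.85% of that with DMSO (log2 change -3.03 ± 0.25, limma adjusted p = 6.17e-06). Spred1 was at 25.2, 17.5 and 19.9 FPKM with DMSO and at 1.64, 2.06 and 2.45 FPKM with PD325901, so its groups lay far apart as well. Its mean fell to 9.83% of the DMSO mean (log2 change -2.83 ± 0.19, limma adjusted p = 2.03e-06). Among all 10305 genes tested, Spred2 ranked 29 and Spred1 ranked 35 by the size of the fall on this scale. They were the 2 of the 7 tested genes called lower by at least 2 on the log2 scale, as were 0.902% of all genes tested.

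Of the Sprouty genes, Spry2 was the most abundant. It was at 4.93, 2.72 and 3.19 FPKM with DMSO and at 0.730, 0.315 and 0.613 FPKM with PD325901. The lowest DMSO library was several times above the highest PD325901 library, and the log2 change was -1.55 ± 0.31 (limma adjusted p = 0.00190). Spry4 was at 1.19, 0.824 and 1.04 FPKM with DMSO, and with PD325901 at 0.0251 FPKM in replicate 1 and listed at 0 in replicates 2 and 3. An exact 0 in this table need not mean an absent transcript, since Psap, a broadly used lysosomal gene, stood at 3004 to 3816 FPKM with DMSO and was also listed at 0 in each PD325901 library. Spry1 was low in both groups, at 0.251, 0.229 and 0.150 FPKM with DMSO and 0.0752, 0.0866 and 0.0220 FPKM with PD325901. When the minimum was dropped and 16474 genes were tested, 18.7% of them were called lower. In that fit Spry4 was called (95% interval of the log2 change -1.33 to -0.66, limma adjusted p = 0.000780) and Spry1 was not (log2 change -0.19 ± 0.16, adjusted p = 0.418).

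The RasGAPs did not move as a block. Rasa2, a RasGAP of the same subfamily as Rasa3, was at 7.19, 6.18 and 7.21 FPKM with DMSO and at 1.06, 1.35 and 1.40 FPKM with PD325901. Its groups were far apart and its mean dropped to 18.5% of the DMSO mean (log2 change -1.79 ± 0.11, limma adjusted p = 1.34e-06). Rasa3 went the other way, from 38.1, 48.4 and 53.4 FPKM to 62.8, 69.6 and 73.4 FPKM, with every PD325901 library above every DMSO library. It rose by 0.56 ± 0.13 on the log2 scale (limma adjusted p = 0.00456), to 1.47 times the DMSO mean. Nf1, which encodes neurofibromin, was at 2.24, 1.84 and 2.17 FPKM with DMSO and at 1.14, 1.29 and 1.43 FPKM with PD325901. This fall was smaller (log2 change -0.43 ± 0.12, limma adjusted p = 0.0142). With replicate 1 left out in all 4 groups Nf1 was no longer called (log2 change -0.35, adjusted p = 0.0677). Rasa1, the GAP with SH2 domains that dock on activated receptors, was at 8.87, 8.85 and 9.95 FPKM with DMSO and at 8.02, 8.26 and 8.62 FPKM with PD325901. These values did not overlap, yet the change of -0.14 ± 0.11 did not pass (95% interval -0.38 to 0.11, limma adjusted p = 0.347).

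In all, 5 of the 7 tested genes were called lower with PD325901 and 1 higher, where 28.2% of all genes tested were called lower and 18.4% higher (46.6% in either direction). All 7 had libraries that did not overlap between the groups, as did 62.7% of all genes tested, and Spry1 and Spry4 did not overlap either. Their median log2 change was -1.55, beside -0.06 for all genes tested. After quantile normalization the split over all genes turned to 2675 higher and 2455 lower, from 1893 and 2909, and the calls of the 7 genes were 5 lower and 1 higher there too. The value added before the logarithm set the size of the changes. With 5 FPKM added, the log2 changes were -0.63 for Spry2, -1.87 for Spred1, -1.59 for Spred2, -0.92 for Rasa2 and -0.17 for Nf1. With 0.1 FPKM added they were -2.52, -3.29, -4.19, -2.35 and -0.66. In bulk RNA, fewer cells of a type and less RNA per cell cannot be told apart.

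Because Spry2, Spred1, Spred2 and Rasa2 fell together while Rasa3 rose, the 250 bases before their annotated starts are shown for comparison. The sequences are from RefSeq (build GRCm38.p6, not the mm9 build to which the reads were aligned), where 8 of the 9 genes were matched. They read 5′ to 3′ on the strand of the gene, and capitals mark matches to any of 8 short motifs searched on both strands.
Spry2, chr14:105896820-105897069, minus strand: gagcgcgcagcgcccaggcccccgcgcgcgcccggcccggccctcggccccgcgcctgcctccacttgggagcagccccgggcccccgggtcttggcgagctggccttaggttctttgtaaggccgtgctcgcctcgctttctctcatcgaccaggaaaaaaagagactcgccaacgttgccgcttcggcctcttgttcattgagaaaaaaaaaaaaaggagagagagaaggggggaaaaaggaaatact
Spred1, chr2:117120821-117121070, plus strand: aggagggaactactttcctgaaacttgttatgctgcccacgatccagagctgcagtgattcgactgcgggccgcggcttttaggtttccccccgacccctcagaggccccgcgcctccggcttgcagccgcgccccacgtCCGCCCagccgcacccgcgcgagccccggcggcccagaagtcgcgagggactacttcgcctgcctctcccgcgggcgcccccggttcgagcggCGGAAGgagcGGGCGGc
Spred2, chr11:19924192-19924441, plus strand: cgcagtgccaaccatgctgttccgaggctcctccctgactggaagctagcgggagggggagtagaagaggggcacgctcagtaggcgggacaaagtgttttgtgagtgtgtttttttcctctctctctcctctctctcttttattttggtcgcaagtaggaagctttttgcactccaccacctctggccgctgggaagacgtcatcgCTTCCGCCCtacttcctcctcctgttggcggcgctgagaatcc
Rasa2, chr9:96631504-96631753, minus strand: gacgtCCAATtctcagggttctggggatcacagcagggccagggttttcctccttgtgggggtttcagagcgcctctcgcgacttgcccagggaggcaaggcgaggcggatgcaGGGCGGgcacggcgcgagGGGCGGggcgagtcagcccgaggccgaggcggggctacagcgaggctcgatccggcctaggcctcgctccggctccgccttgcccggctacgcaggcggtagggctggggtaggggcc
Rasa3, chr8:13677588-13677837, minus strand: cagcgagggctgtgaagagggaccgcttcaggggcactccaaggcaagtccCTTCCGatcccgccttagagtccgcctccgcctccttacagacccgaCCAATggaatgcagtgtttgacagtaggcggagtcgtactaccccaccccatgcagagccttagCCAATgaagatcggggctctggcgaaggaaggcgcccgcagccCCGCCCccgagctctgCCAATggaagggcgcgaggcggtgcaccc

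The ETS core CGGAAG, the kind of site bound by the ERK-driven ETS factors, occurred once each before Spred1 (starting 17 bases before the gene's start), Spred2 (43 bases) and Rasa3 (199 bases). It also occurred before Nf1 and Rasa1, and these letters were in 13.6% of all 32851 such windows. It was present before genes that fell and before the gene that rose, and was not in the windows of Spry2 or Rasa2. Whether any of these sites plays a part in the changes was not tested. The GC box GGGCGG (32.7% of all windows) was in those of Spred1, Spred2, Rasa2 and Rasa3. In Spred2 it overlaps the ETS core, both being on the opposite strand. The CCAAT box CCAAT (33.8% of all windows) was found 3 times before Rasa3 and once before Rasa2. None of these 5 windows held the cAMP response element TGACGTCA (1.55% of all windows), the AP-1 site TGANTCA (6.75%), the E-box CACGTG (6.02%), the FOXO site GTAAACA (3.17%) or the TATA box TATAAA (12.4%). The Spry2 window held none of the 8 motifs. GC content was 62.4% before Spry2, 70.8% before Spred1, 56.0% before Spred2, 71.2% before Rasa2 and 64.4% before Rasa3, against a median of 52.4%.

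RAD001 against DMSO asks the same of the mTOR inhibitor. Here Rasa2 rose most. It reached 13.5, 15.3 and 14.3 FPKM, with every RAD001 library well above the DMSO libraries. That was 2.09 times the DMSO mean (log2 change 0.97 ± 0.11, limma adjusted p = 0.000160). Rasa1 rose to 15.9, 13.0 and 11.6 FPKM (log2 change 0.49 ± 0.11, limma adjusted p = 0.00683), again without overlap. Nf1 rose to 3.32, 3.02 and 3.12 FPKM, all above DMSO (log2 change 0.43 ± 0.12, limma adjusted p = 0.0216). Spred1 rose to 32.8, 32.4 and 28.2 FPKM (log2 change 0.57 ± 0.19, limma adjusted p = 0.0404), above the highest DMSO library. Thus 4 of the 7 tested genes were called higher and 0 lower, where 15.4% of all genes tested were called higher and 15.9% lower (31.3% in either direction). Libraries of 5 of the 7 did not overlap with DMSO, as for 50.8% of all genes tested. Their median log2 change was 0.43, beside 0.00 for all genes tested.

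Rasa3 was at 30.5, 38.6 and 38.4 FPKM with RAD001, and overlapped DMSO only through DMSO replicate 1. It missed the threshold (log2 change -0.37 ± 0.13, limma adjusted p = 0.0508). With the replicate number as a block it passed (adjusted p = 0.0103). It also passed after quantile normalization (0.0450), with library weights (0.000239), without DMSO replicate 1 (log2 change -0.50, adjusted p = 0.0106) and with replicate 1 left out in all 4 groups (0.00319). In the other 11 of its 16 alternatives Rasa3 still missed the threshold (limma adjusted p up to 0.19). Spred2 was at 15.6, 15.1 and 13.3 FPKM, just above the DMSO libraries, and did not pass (log2 change 0.29 ± 0.25, 95% interval -0.25 to 0.83, limma adjusted p = 0.387), except with library weights (0.0178). Spry2 was at 6.06, 3.09 and 2.32 FPKM and overlapped DMSO widely (log2 change 0.02 ± 0.31, 95% interval -0.66 to 0.70). Spry4 was at 1.18, 1.89 and 1.05 FPKM and Spry1 at 0.503, 0.104 and 0.0626 FPKM, both overlapping DMSO.

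The RAD001 calls of Spred1 and Nf1 rested on few libraries. The Spred1 call ended without DMSO replicate 2 or 3 or any 1 of the RAD001 libraries (adjusted p = 0.0588 to 0.146 by limma, log2 changes 0.46 to 0.64). It also ended with 0.1 FPKM added (adjusted p = 0.0515) and with no minimum (0.0678). The Nf1 call ended without DMSO replicate 2 or 3 or RAD001 replicate 1 or 3 (0.0516 to 0.0871, log2 changes 0.37 to 0.45). The Rasa1 and Rasa2 calls were made in all 16 alternatives run.

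GDC0941 against DMSO asks the same of the PI3 kinase inhibitor, and here Rasa1 rose and no other tested gene was called. It was at 13.7, 13.8 and 11.4 FPKM, above all DMSO libraries, the 1 call among the 7 tested genes (log2 change 0.45 ± 0.11, limma adjusted p = 0.0144). Over all genes tested 11.6% were called higher and 12.7% lower (24.3% in either direction). It was also the 1 of the 7 whose libraries did not overlap with DMSO, as for 38.7% of all genes tested. The Rasa1 call ended without DMSO replicate 2 (log2 change 0.42, adjusted p = 0.0556) or GDC0941 replicate 2 (0.40, adjusted p = 0.0526). Nf1 was at 3.22, 3.38 and 2.21 FPKM (log2 change 0.34 ± 0.12, limma adjusted p = 0.0674). GDC0941 replicate 3 fell within the DMSO range, and without it Nf1 was called (log2 change 0.48, adjusted p = 0.0101). It was called with quantile normalization (0.00545) and library weights (0.0135) too. The other 12 of its 15 alternatives left Nf1 uncalled (limma adjusted p up to 0.209).

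Rasa2 stood at 7.13, 7.82 and 5.84 FPKM with GDC0941, overlapping DMSO (log2 change 0.01 ± 0.11, 95% interval -0.24 to 0.25). Rasa3 was at 51.1, 57.4 and 51.5 FPKM (log2 change 0.20 ± 0.13, 95% interval -0.08 to 0.49). Spred1 varied from 15.0 to 26.2 FPKM and Spred2 from 6.49 to 16.3 FPKM, both lowest in replicate 3. Their log2 changes were 0.00 ± 0.19 (95% interval -0.41 to 0.42) and -0.08 ± 0.25 (95% interval -0.62 to 0.46). Spry2 was at 5.88, 2.84 and 2.53 FPKM (log2 change 0.00 ± 0.31, 95% interval -0.67 to 0.68). Spry4 was at 1.16, 1.91 and 1.10 FPKM and overlapped DMSO. Spry1, in contrast, was above all other groups, at 1.48, 0.585 and 0.956 FPKM. With no minimum, where 6.78% of 16474 genes were called higher, Spry1 was called (log2 change 0.71 ± 0.16, limma adjusted p = 0.0145). In the annotation 24.4% of the exon bases of Spry1 overlap Gm42922 on the opposite strand, so its reads may be shared, and 12 bases of Rasa1 overlap Ccnh. The other 7 genes shared no exon base with another gene.

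**Figure D2:**
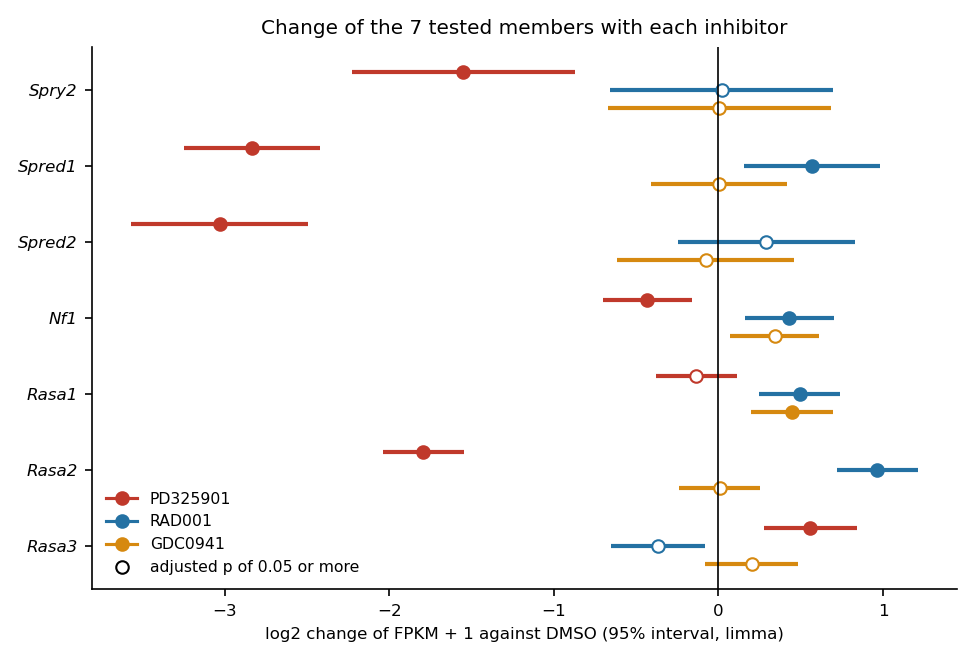
Log2 change of FPKM + 1 against DMSO (horizontal axis) of the 7 tested genes for PD325901, RAD001 and GDC0941. Points are limma estimates, lines their 95% intervals, and filled points have an adjusted p under 0.05. PD325901 lies far to the left for Spry2, Spred1, Spred2 and Rasa2, and Rasa3 is the 1 gene it raised.

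The 3 inhibitor groups share the DMSO libraries, so differences between inhibitors were tested directly. All 7 tested genes differed between PD325901 and RAD001, 6 lower with PD325901 and Rasa3 higher, where 29.4% of all genes tested were called lower and 20.8% higher. Rasa2 differed by -2.76 ± 0.11 on the log2 scale (limma adjusted p = 1.97e-08), Spred1 by -3.40 ± 0.19 (1.94e-07) and Spred2 by -3.32 ± 0.25 (1.64e-06). Rasa3 differed by 0.92 ± 0.13 (0.000139), Nf1 by -0.86 ± 0.12 (0.000166), Rasa1 by -0.63 ± 0.11 (0.000753) and Spry2 by -1.57 ± 0.31 (0.00143). Against DMSO, Spred1, Nf1 and Rasa2 had been called lower with PD325901 and higher with RAD001.

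Against GDC0941, PD325901 gave the same split of 6 genes lower and Rasa3 higher, where 30.7% of all genes tested were lower and 20.9% higher. The differences were largest for Spred2 (-2.95 ± 0.25), Spred1 (-2.84 ± 0.19) and Rasa2 (-1.80 ± 0.11). The Rasa3 difference was small (0.36 ± 0.13, limma adjusted p = 0.0380). It ended without PD325901 replicate 2 or 3 or GDC0941 replicate 1 or 3 (adjusted p = 0.0901 to 0.121, log2 differences 0.31 to 0.34), and with no minimum (0.0551). RAD001 and GDC0941 differed in 2 of the 7 genes, where 9.35% of all genes tested were higher with RAD001 and 8.09% lower. Rasa2 was higher with RAD001 by 0.96 ± 0.11 (limma adjusted p = 0.000236) and Rasa3 lower, at -0.57 ± 0.13 (0.0129). Spred1 missed the threshold (0.57 ± 0.19, limma adjusted p = 0.0606) and passed in 5 of its 16 alternatives. Nf1 (95% interval -0.18 to 0.36), Rasa1 (-0.20 to 0.29), Spred2 (-0.17 to 0.91) and Spry2 (-0.66 to 0.69) did not pass between them.

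The fit with no minimum adds the scarce Sprouty genes to these comparisons. Spry4 was lower with PD325901 than with RAD001 (log2 difference -1.22 ± 0.15, limma adjusted p = 0.000151) and GDC0941 (-1.23 ± 0.15, 0.000144), where 19% and 19.2% of 16474 genes were called lower. Spry1 was higher with GDC0941 than with the other inhibitors. It differed by -0.90 ± 0.16 for PD325901 against GDC0941 (limma adjusted p = 0.00148) and by -0.71 ± 0.16 for RAD001 against GDC0941 (0.0216), where 3.96% of genes were called lower in the latter.

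The make-up of the 9 brakes is described here by sums of their levels. Summed over the 5 Sprouty and Spred genes, the level was 44.7, 31.5 and 36.5 FPKM with DMSO and 2.84, 3.25 and 3.65 FPKM with PD325901. With RAD001 the sum was 56.1, 52.6 and 44.9 FPKM, all above DMSO, and with GDC0941 it was 51.0, 40.5 and 26.0 FPKM. Spred1 and Spred2 supplied 87.3% ± 1.31 of it with DMSO and 80.3% ± 8.67 with PD325901. The sum of the 4 chosen RasGAPs was 56.4 to 72.7 FPKM with DMSO and 73.1 to 84.8 FPKM with PD325901. Rasa3 accounted for 71.7% ± 3.60 of this sum of 4 with DMSO, 86.3% ± 0.278 with PD325901, 53.5% ± 4.60 with RAD001 and 70.1% ± 2.31 with GDC0941. Rasa2 went from 10.7% ± 1.77 of that sum with DMSO to 1.59% ± 0.124 with PD325901 and 21.5% ± 0.332 with RAD001. These sums describe the chosen genes and were not tested. They leave out Rasa4, a RasGAP that is not among the 9 genes and was about as abundant as Rasa3, at 44.7 ± 6.31 FPKM with DMSO, 59.7 ± 5.17 with PD325901, 38.7 ± 5.73 with RAD001 and 42.6 ± 6.45 with GDC0941.

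**Figure D3:**
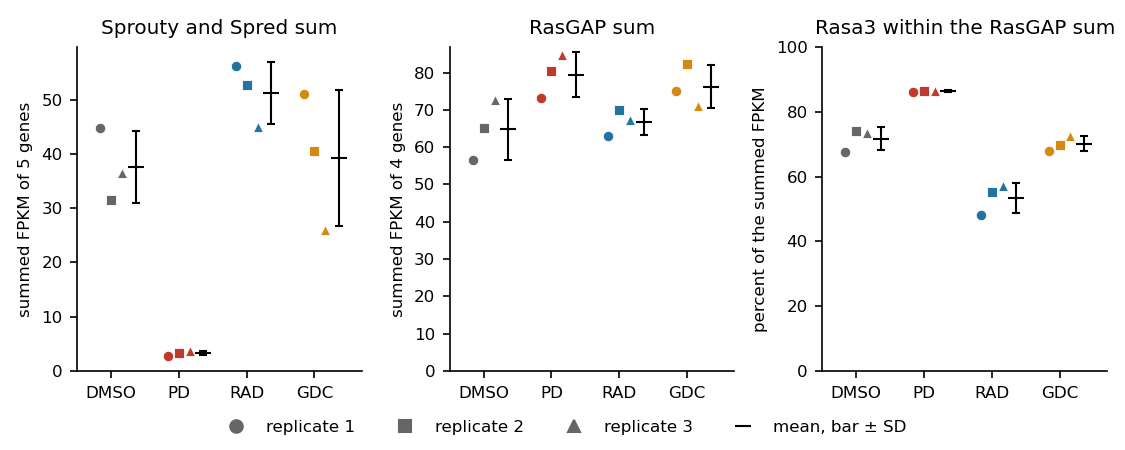
Summed FPKM of the 5 Sprouty and Spred genes (left), summed FPKM of the 4 RasGAP genes (middle) and Rasa3 as a percentage of the RasGAP sum (right) in the 12 libraries by group, with mean ± SD of 3 libraries. The Sprouty and Spred sum was 2.84 to 3.65 FPKM with PD325901, while the RasGAP sum was 73.1 to 84.8 FPKM and 86.0% to 86.5% of it was Rasa3.

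Other genes of the pathway, taken from 5 companion lists, were read beside these 9. Their counts are to be read against the shares of all genes tested, which were 18.4% higher and 28.2% lower with PD325901, 15.4% and 15.9% with RAD001, and 11.6% and 12.7% with GDC0941. In the list of other ERK feedback genes, 7 of 9 tested fell with PD325901 and 0 rose (median log2 change -1.61), while 6 rose with RAD001 (median 1.13) and 3 with GDC0941 (median 0.24), and 0 fell with either. Dusp6, Etv4 and Etv5 were chosen together as the reference for ERK output. The ERK phosphatase gene Dusp6 went from 118, 66.7 and 78.3 FPKM to 5.24, 6.67 and 5.63 FPKM with PD325901. With RAD001 it stood at 285, 280 and 259 FPKM and with GDC0941 at 147, 126 and 133 FPKM, above DMSO in both. The log2 changes were -3.66 ± 0.17, 1.68 ± 0.17 and 0.66 ± 0.17 (limma adjusted p = 2.4e-07, 7.74e-05 and 0.0164). The immediate early factor Egr1 fell by 3.49 ± 0.23 with PD325901 and rose by 1.71 ± 0.23 with RAD001 and 1.03 ± 0.23 with GDC0941 (limma adjusted p = 1.93e-06, 0.000386 and 0.00795). The ETS factor Etv5 fell by 4.14 ± 0.19 with PD325901 (limma adjusted p = 2.4e-07) and was at -0.03 ± 0.19 with RAD001 (0.915) and -0.53 ± 0.19 with GDC0941 (0.0623). Its relative Etv4, untested for its low level, was at 1.21 to 1.50 FPKM with DMSO and 0 to 0.0309 FPKM with PD325901. With RAD001 Etv4 was at 1.09 to 1.87 FPKM, overlapping DMSO, and with GDC0941 at 0.790 to 1.16 FPKM, below all DMSO libraries.

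Among other Sprouty, Spred and RasGAP genes 3 of 7 found were tested. With PD325901 Rasa4, a calcium-regulated RasGAP, rose by 0.42 ± 0.14 and Dab2ip, another RasGAP, fell by 0.67 ± 0.21 (limma adjusted p = 0.0324 and 0.0237), while Rasal3 was at -0.20 ± 0.15 (0.308). None of the 3 was called with RAD001 or GDC0941. Of 5 tested exchange factors, which load RAS with GTP, 2 rose with PD325901. These were Rasgrp4 (0.86 ± 0.11) and Rasgrp2 (0.89 ± 0.17), with limma adjusted p = 0.000132 and 0.00155. With RAD001 Rasgrp4 rose by 1.38 ± 0.11, Sos2 rose by 0.55 ± 0.11 and Rasgrp2 fell by 0.57 ± 0.17 (limma adjusted p = 2.07e-05, 0.00313 and 0.0257). With GDC0941 Sos2 rose by 0.36 ± 0.11 and Rasgrp2 fell by 0.82 ± 0.17 (0.0316 and 0.00587).

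Of the 13 tested RAS, RAF, MEK and ERK genes, 4 rose and 3 fell with PD325901 (median -0.05), 2 rose with RAD001 and 3 with GDC0941. The ERK gene Mapk3 rose by 0.82 ± 0.10 and Rras2, a RAS relative, by 1.06 ± 0.21 with PD325901 (limma adjusted p = 9.41e-05 and 0.00188). Mapk3 also rose by 0.43 ± 0.10 with RAD001 and 0.41 ± 0.10 with GDC0941 (0.00825 and 0.0138), while Rras2 was at 0.02 ± 0.21 and 0.23 ± 0.21 (0.942 and 0.479). Of 13 tested partners and regulators of Sprouty and Spred, 2 rose with each inhibitor, a share near that of all genes tested called higher. With each inhibitor 0 fell, where 28.2% of all genes tested were called lower with PD325901, 15.9% with RAD001 and 12.7% with GDC0941. The kinase gene Mknk1 rose by 0.46 ± 0.09 with PD325901 (limma adjusted p = 0.00144). Cav1, the caveolin that binds Sprouty, rose by 1.51 ± 0.22 with RAD001 and 0.85 ± 0.22 with GDC0941 (0.000662 and 0.0184). Spop, a ubiquitin ligase adaptor, rose by 0.50 ± 0.10 and 0.52 ± 0.10 (0.00398 and 0.00405).

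**Figure D4:**
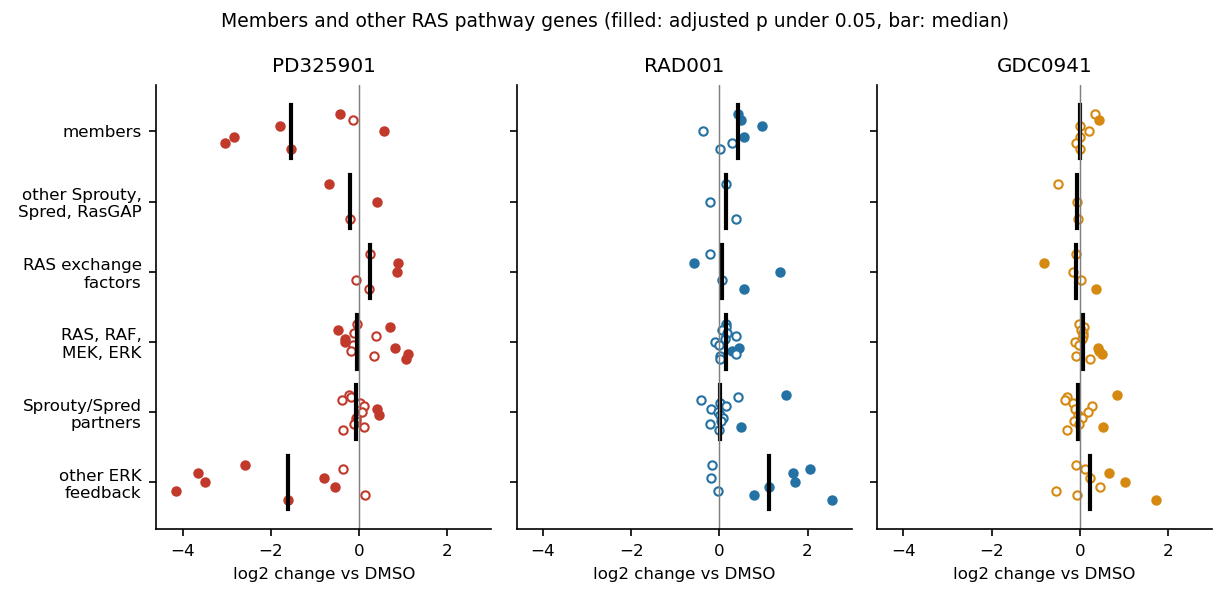
Log2 change of FPKM + 1 against DMSO (horizontal axes) of the 7 tested brakes (top row, members) and of the tested genes of 5 other lists (rows) for the 3 inhibitors. Each point is 1 gene, filled at an adjusted p under 0.05, and black bars are list medians. The medians of the brakes and of the other ERK feedback genes were -1.55 and -1.61 with PD325901, and 0.43 and 1.13 with RAD001.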

How the data were processed

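RNA-seq was deposited for 12 libraries of mouse AML cells, 3 for each of 4 treatments. The deposited values are FPKM per gene symbol, which the authors computed with Cuffdiff after TopHat2 2.0.4 alignment to mm9, per the submitters' processing notes. Their annotation, Cuffdiff's version and how libraries were scaled were not given in the sources used here. Rows carry symbols without positions, and columns sum to 462335 to 587581 FPKM. No 2 libraries were identical. Relative depth came from the spacing of low values. Absolute depth is unknown, so counting error has no estimate.

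From these values log2(FPKM + 1) was computed for the 10305 genes whose mean over all libraries reached 1 FPKM. A linear model with 4 group means (8 residual degrees of freedom) was fitted with limma 3.58.1 in R 4.3.3, with a trended eBayes step. Tests were two-sided, and p was adjusted (Benjamini-Hochberg) over all 10305 genes for each comparison. The 95% intervals are unadjusted. The procedure was tested on simulated data. The 9 genes, the companion lists and the tests were chosen with earlier results of these data known. All 9 genes are named, from each of 5 companion lists up to 3 genes with the smallest adjusted p against DMSO, and for each tested gene the 3 most correlated genes. A few genes of these lists are not reported here.

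Same-numbered replicates deviated together (all 3 correlations above 0.1) in the comparisons of DMSO with PD325901 or RAD001, and of RAD001 with either other inhibitor (lowest 0.149), but not for GDC0941 against DMSO (lowest 0.0354) or PD325901 (lowest -0.139). The labels name no pairs. The alternatives were other pseudocounts (0.1 and 5 FPKM), no minimum or 5 FPKM, scaling by median ratios or by quantiles, fits of 2 groups alone, the replicate block, library weights and leaving libraries out. Exon overlap was read from GENCODE M21 (GRCm38).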

Additional observations from a re-analysis of the deposited data

How the results depend on the processing

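Of 660 refits of the 7 tested genes in 6 comparisons, 627 left the call as it was, 19 ended a call, 14 made one and 0 reversed a called direction. The counts of genes called of these 9 were within 1.5 times the reported count in every alternative for PD325901 against DMSO, RAD001 or GDC0941 and for RAD001 against GDC0941. For GDC0941 against DMSO the count was 1, or 2 with no minimum, with quantile normalization and with library weights, and 0 to 2 with libraries left out (0 without DMSO or GDC0941 replicate 2, 2 without GDC0941 replicate 3). For RAD001 against DMSO it was 4, or 3 with 0.1 FPKM added, no minimum or a minimum of 5 FPKM. This count was 5 with quantile normalization and with the replicate block, and 6 with library weights. With libraries left out it was 2 to 5 (2 without DMSO replicate 2 or 3 or RAD001 replicate 1 or 3). Over all genes, 3224 were called for RAD001 (6923 with library weights, 2231 to 3259 with 1 library left out, 4845 with replicate 1 left out in all 4 groups) and 2503 for GDC0941 (3849, 1659 to 3140 and 4321 in the same order). The lowest GDC0941 count was without DMSO replicate 2, and the cause was not tested. With the replicate block 6, 5 and 1 of the 7 genes were called for PD325901, RAD001 and GDC0941 against DMSO, and the call of Rasa3 with RAD001 was the only 1 of these genes' calls that changed. Median-ratio scaling and quantile normalization moved the median of all genes by at most 0.0974 (log2). Absolute depth is unknown, so the precision of values below 1 FPKM (Spry1 in most libraries, and Spry2, Spry4 and Spred2 with PD325901) could not be computed.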

Other observations

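Genes whose log2(FPKM + 1) followed each brake most closely over the 12 libraries were found by Pearson correlation among 10298 other genes. The correlations describe these libraries, which fall into treatment groups, and carry no test. For Spred2 they were Cirh1a (r = 0.993), the ETS factor Etv5 (0.988) and the survival gene Bcl2 (0.986), with Bcl2 at 7.18 ± 0.735 FPKM in DMSO and 0.666 ± 0.310 FPKM with PD325901 (SD, n = 3). For Spred1 they were Eaf1 (0.996), the adhesion protein gene Flrt2 (0.993) and the chromatin protein gene Hmga1 (0.990), with Flrt2 at 7.14 ± 1.91, 0.188 ± 0.0467, 12.3 ± 2.47 and 7.67 ± 2.29 FPKM with DMSO, PD325901, RAD001 and GDC0941. Spry2 was closest to the ERK phosphatase gene Dusp4 (0.983), Pabpc1 (0.982) and Plekha3 (0.979). Rasa2 was closest to Zwint, Pi4k2b (both 0.989) and Serpinb8 (0.988), and Serpinb8 was at 16.5 ± 0.574, 3.11 ± 0.523, 47.0 ± 9.78 and 16.5 ± 2.44 FPKM in the same order of groups. Rasa3 was closest to Ak3 (0.968), the lysosomal amidase gene Naaa (0.967) and Pcyt1a (0.960). Nf1 was closest to Zdhhc20 (0.975), Jmjd1c (0.974) and Pafah1b1 (0.973), and Rasa1 to Msn (0.967), Lass4 and Mbtps1 (both 0.965).

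Spry2 was highest in the replicate 1 library of all 4 groups, at 4.93, 0.730, 6.06 and 5.88 FPKM with DMSO, PD325901, RAD001 and GDC0941. In the same order, replicate 1 was the highest of its group for 41.8%, 48.1%, 45.4% and 47.5% of all genes tested. Dusp4, the gene closest to Spry2, varied widely within groups as well, at 5.78 ± 2.96 FPKM with DMSO and 5.83 ± 4.35 FPKM with GDC0941. GDC0941 replicate 3 was the lowest of its group for 7 of the 9 brakes, where it was the lowest for 35.7% of all genes tested. DMSO replicate 2 was the lowest of its group for 7 of the 9 as well, where it was the lowest for 34.1% of all genes tested. Spred3, which was not tested for its low level, was at 0.872 ± 0.283 FPKM with DMSO, 0.288 ± 0.0611 with PD325901, 1.60 ± 0.768 with RAD001 and 0.572 ± 0.118 with GDC0941.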
